A study of Mus musculus with 18 samples.

Results

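The genes described here are 8 genes of meiotic chromosomes and of the testis, namely Sycp1, Sycp2, Sycp3, Hormad1, Stag3, Tex101, Dpep3 and Slc25a31. Their CpG methylation comes from eRRBS, an enhanced form of reduced representation bisulfite sequencing, in which enzyme-cut DNA is treated with bisulfite, so that sequencing tells methylated from unmethylated cytosine. The 8 genes were chosen by name out of 21938 protein-coding genes, and a CpG in a gene or within 2 kb on either side was taken if it had at least 1 read in all 18 libraries. This left 743 CpGs, of which 271 lay within 500 bp of a transcript start (the promoter), 382 in the rest of the genes (the body) and 90 in the flanks. A level is the methylated share of the reads summed over the CpGs of a promoter or body in 1 library, in percent.

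The libraries came from mouse embryonic stem (ES) cells that lack Dnmt1 and were rescued with a plasmid expressing DNMT1, under puromycin selection. There were 6 groups of 3 biological replicates. The rescue was wild type (WT) or carried W796A, W465A, W465A/W796A, W464A/W465A or W464A/W465A/W796A, where W465A for example stands for alanine in place of a tryptophan. All groups shared the knockout, the plasmid, the selection and culture on gelatin in serum with leukemia inhibitory factor. Several stable lines were made per group, but it is not stated that the 3 libraries of each group come from different lines, so the p-values below measure the spread between these libraries, which may be technical. The data hold no RNA values, so neither the activity of the genes nor the cell type label was checked by expression.

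In meiosis, homologous chromosomes are organised along protein axes and joined by the synaptonemal complex, a zipper-like structure. SYCP1 forms its transverse filaments, SYCP2 and SYCP3 its lateral elements, HORMAD1 sits on axes that are not yet joined, and STAG3 is a subunit of the meiotic form of cohesin. TEX101 is a surface glycoprotein of male germ cells, DPEP3 a membrane-bound member of the dipeptidase family in the testis, and SLC25A31 the ADP/ATP carrier of germ cell mitochondria. Promoters of many germline genes are rich in CpGs and methylated in cells outside the germ line, where the genes are silent. DNMT1 copies CpG methylation onto the new DNA strand after replication.

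Upstream sequence is shown for 4 promoters that span the levels found here, with capitals at the CpGs that had a read in all 18 libraries. Dpep3 (chr8:105979430-105979679, minus strand) was the most methylated of the 8 in WT. Slc25a31 (chr3:40708605-40708854, plus strand) and Sycp2 (chr2:178407777-178408026, minus strand) kept the smallest shares of their WT level in W464A/W465A over the whole promoter. Stag3 (chr5:138280027-138280141, plus strand) was unmethylated. Each stretch comes from the RefSeq sequence of GRCm38, reads 5′ to 3′ on the strand of the gene and holds no annotated exon.
Dpep3: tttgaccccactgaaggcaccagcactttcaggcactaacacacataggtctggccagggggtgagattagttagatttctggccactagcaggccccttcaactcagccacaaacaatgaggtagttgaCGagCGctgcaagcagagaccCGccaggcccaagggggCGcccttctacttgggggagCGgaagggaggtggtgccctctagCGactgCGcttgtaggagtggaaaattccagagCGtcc
Slc25a31: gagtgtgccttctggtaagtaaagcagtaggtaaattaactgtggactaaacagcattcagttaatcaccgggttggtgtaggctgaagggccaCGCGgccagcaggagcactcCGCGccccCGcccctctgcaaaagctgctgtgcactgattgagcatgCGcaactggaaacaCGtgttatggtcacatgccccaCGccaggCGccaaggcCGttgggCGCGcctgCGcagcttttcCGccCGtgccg
Sycp2: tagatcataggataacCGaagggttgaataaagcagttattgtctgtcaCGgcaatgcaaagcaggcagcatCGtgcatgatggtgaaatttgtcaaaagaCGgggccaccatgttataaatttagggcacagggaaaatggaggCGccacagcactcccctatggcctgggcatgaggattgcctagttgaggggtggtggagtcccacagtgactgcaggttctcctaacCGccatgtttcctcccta
Stag3: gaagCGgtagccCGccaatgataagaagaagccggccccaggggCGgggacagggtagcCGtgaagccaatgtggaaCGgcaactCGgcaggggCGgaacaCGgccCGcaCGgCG

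The Dpep3 and Slc25a31 stretches end at the base before the transcript start, the Sycp2 stretch 92 bases before it and the Stag3 stretch 385 bases before it. With the 3 libraries of a group pooled, the 8 capital CpGs of Dpep3 ranged from 70.7% to 98.0% in WT, and their median was 84.7% in WT and 18.9% in W464A/W465A. At the 15 capital CpGs of Slc25a31 the median was 50.4% in WT and 6.67% in W464A/W465A. At the 6 of Sycp2 it was 71.1% in WT and 17.3% in W464A/W465A. These are 6 of the 41 CpGs of the Sycp2 promoter. As a whole that promoter had mean levels of 34.8% in WT and 3.67% in W464A/W465A, so the stretch does not stand for it. All 11 of Stag3 were at 0% in WT, so the 4 stretches already differed in WT.

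Transcript starts were those of the principal transcripts in GENCODE M21. Sycp1 (chr3:102818499-102936100, minus strand, 33 exons), Hormad1 (chr3:95559677-95587671, plus strand, 16 exons) and Slc25a31 (chr3:40708855-40726096, plus strand, 6 exons) lie on chromosome 3. Sycp2 (chr2:178345293-178407685, minus strand, 44 exons), Sycp3 (chr10:88459569-88473236, plus strand, 9 exons) and Dpep3 (chr8:105973513-105979429, minus strand, 10 exons) lie on other chromosomes. Sycp3 overlaps Chpt1, so CpGs in that overlap belong to both genes. Stag3 (chr5:138280240-138312393, plus strand, 34 exons) has its principal transcript start 286 bp inside the gene record. That start is 521 bp from a start of Gpc2, which runs the other way, so windows of 500 bp around the 2 starts overlap. The Stag3 stretch shown above lies between the 2 starts and nearer that of Gpc2. Tex101 (chr7:24668007-24676675, minus strand, 6 exons) has its principal transcript start 4625 bp inside the gene record.

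Read totals per library ranged from 59776439 to 138978763, and the median read count at the CpGs shared by all libraries from 6 to 13. The 8 promoters had between 147 (Hormad1) and 1821 (Sycp2) reads per library, and the 8 bodies between 162 (Slc25a31) and 1203 (Sycp1). Replicate 1 of WT and replicate 1 of W796A had the lowest promoter level of their group at 8 of 8 genes. Over all shared CpGs WT replicate 1 had a level of 44.8% against 57.2% and 57.1% in the other WT libraries, and W796A replicate 1 had 40.7% against 58.3% and 57.8%. The part of these 2 libraries in the results below is shown where leaving one out changed a call.

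In WT cells 7 of the 8 promoters were methylated and that of Stag3 was not. In descending order, mean WT levels were 87.7% ± 6.13 (SD, n = 3) at Dpep3, 76.6% ± 17.8 (SD, n = 3) at Tex101 and 53.4% ± 17.1 (SD, n = 3) at Hormad1. They were 51.8% ± 15.5 (SD, n = 3) at Slc25a31, 50.9% ± 12.1 (SD, n = 3) at Sycp3 and 41.6% ± 19.1 (SD, n = 3) at Sycp1. The lowest were 34.8% ± 13.3 (SD, n = 3) at Sycp2 and 0.550% ± 0.268 (SD, n = 3) at Stag3. From Dpep3 down to Sycp2, neighbours in this order overlapped in their WT libraries, and Stag3 did not overlap Sycp2. Of 15914 promoters tested over all genes, 19.8% had a pooled WT level of at least 20%. Dpep3 stood above 99.1% of these promoters, Tex101 above 95.0%, the other 5 methylated genes above 83.7% (Sycp2) to 86.3% (Slc25a31), and Stag3 above 38.2%.

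The 3 synaptonemal complex genes lost promoter methylation in W465A, W464A/W465A and W464A/W465A/W796A cells, and Sycp2 reached the lowest levels of the 3. Sycp2 had 21.6%, 48.3% and 34.5% in WT replicates 1 to 3 and 28.7%, 64.6% and 50.2% in W796A. It had 9.12%, 8.03% and 8.29% in W465A, and 22.1%, 17.2% and 23.3% in W465A/W796A. It had 3.94%, 3.22% and 3.85% in W464A/W465A, and 6.50%, 9.52% and 5.93% in W464A/W465A/W796A. All Sycp2 libraries of W465A, W464A/W465A and W464A/W465A/W796A were below all WT libraries, whereas those of W796A and W465A/W796A overlapped WT.

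Sycp1 had 26.7%, 63.1% and 34.9% in WT, 39.1%, 72.9% and 48.0% in W796A, and 19.4%, 20.4% and 13.7% in W465A. In W465A/W796A it had 59.1%, 22.1% and 32.9%. It had 15.2%, 9.06% and 10.9% in W464A/W465A, and 11.5%, 24.5% and 11.6% in W464A/W465A/W796A. W465A/W796A replicate 1 stood apart from the other 2 libraries of its group at this gene, and the order of the groups was otherwise that of Sycp2.

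Sycp3 had 43.7%, 64.8% and 44.1% in WT, 33.5%, 68.4% and 47.1% in W796A, and 22.5%, 16.8% and 19.1% in W465A. It had 37.5%, 37.8% and 49.8% in W465A/W796A, 10.8%, 9.36% and 15.7% in W464A/W465A, and 16.5%, 13.5% and 16.3% in W464A/W465A/W796A. The libraries of the groups carrying W465A without W796A, and of W464A/W465A/W796A, were below those of WT, and W465A/W796A overlapped WT.

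Of the axis and cohesin genes, Hormad1 followed the synaptonemal complex genes and Stag3 had almost no promoter methylation to lose. Hormad1 had 41.5%, 72.9% and 45.8% in WT, 38.5%, 64.0% and 55.2% in W796A, and 20.2%, 7.63% and 7.28% in W465A. It had 46.9%, 35.3% and 44.5% in W465A/W796A, 9.41%, 13.0% and 12.9% in W464A/W465A, and 9.76%, 25.9% and 15.8% in W464A/W465A/W796A. Its W465A/W796A libraries overlapped WT and lay above all libraries of the other groups with W465A. Stag3 had 0.244%, 0.668% and 0.739% in WT, and 0.676%, 3.45% and 2.91% in W796A. Its other 12 libraries lay between 0% and 0.794%, so W796A replicates 2 and 3 were its highest.

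The testis genes Tex101 and Dpep3 started from the highest WT levels and all their W465A libraries lay above those of the meiotic genes. Tex101 had 56.5%, 83.1% and 90.4% in WT, 56.4%, 89.8% and 83.2% in W796A, and 36.2%, 27.0% and 22.9% in W465A. It had 48.3%, 42.5% and 57.9% in W465A/W796A, 13.3%, 18.5% and 18.7% in W464A/W465A, and 19.9%, 21.7% and 17.97% in W464A/W465A/W796A. Its W465A/W796A libraries lay between the other groups with W465A and most of WT, with 57.9% above the lowest WT library.

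Dpep3 had 81.1%, 88.8% and 93.2% in WT, 59.3%, 93.1% and 86.4% in W796A, and 40.5%, 33.2% and 31.1% in W465A. It had 64.0%, 65.4% and 59.4% in W465A/W796A, 26.6%, 28.3% and 23.4% in W464A/W465A, and 27.6%, 36.2% and 33.6% in W464A/W465A/W796A. Here all W465A/W796A libraries were below all WT libraries and above all W465A libraries. Slc25a31, the mitochondrial carrier gene, had 35.7%, 66.5% and 53.3% in WT, 40.0%, 77.7% and 59.7% in W796A, and 12.3%, 6.24% and 12.1% in W465A. It had 40.1%, 31.8% and 30.6% in W465A/W796A, 10.6%, 5.84% and 6.64% in W464A/W465A, and 12.1%, 18.5% and 10.3% in W464A/W465A/W796A. At Slc25a31 the libraries of the other groups with W465A lay below all WT libraries, and those of W465A/W796A overlapped WT.

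**Figure D1:**
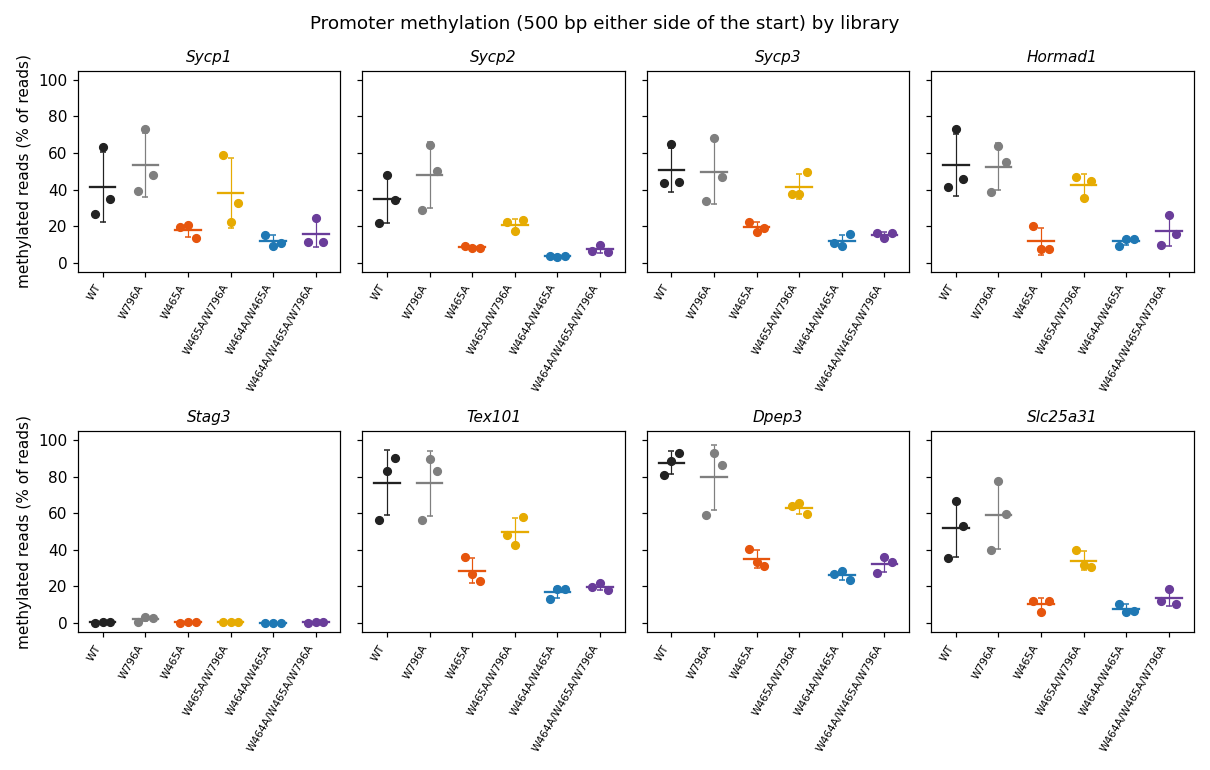
Promoter methylation level (vertical axis, percent of reads within 500 bp of the start) of the 8 genes in each library. Points are libraries in the order of replicates 1 to 3, the horizontal bar is the mean and the error bar 1 SD (n = 3). At 7 genes the W465A, W464A/W465A and W464A/W465A/W796A libraries lie below the WT libraries, and Stag3 stays under 4% in all 18.

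Substitution of W465 alone lowered 7 of the 8 promoters, all except Stag3, against WT. The test was a quasi-binomial logistic model of the summed reads over all 15914 promoters, with Benjamini-Hochberg adjustment over all of them, and calls needed an adjusted p below 0.05 together with a change of 10 or more points in pooled level. In W465A 21% of promoters were called lower. The W465A libraries lay below the WT libraries without overlap at the 7, as at 35.5% of all promoters. The difference of mean levels was -52.8 points ± 4.55 (SE) at Dpep3, with an adjusted p of 0.000168 in the quasi-binomial model. It was -41.6 points ± 9.14 (SE) at Slc25a31 (adjusted p = 0.000318) and -26.3 points ± 7.69 (SE) at Sycp2 (adjusted p = 0.000548). Sycp1 gave the weakest of the 7 calls, at -23.8 points ± 11.2 (SE) and an adjusted p of 0.0269 in the same model. That call was lost without WT replicate 2, without W465A replicate 3, or with no squeezing of the overdispersion. Two-sided exact permutation of 3 against 3 libraries cannot give a p under 0.1, so the fit across genes carries the tests.

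With W464 also substituted, the same 7 promoters were called lower than WT, and 22.2% of all promoters were. Libraries did not overlap at the 7, as at 40.1% of all. The largest differences were -61.6 points ± 3.83 (SE) at Dpep3 (adjusted p = 4.25e-05 in the quasi-binomial model) and -59.8 points ± 10.4 (SE) at Tex101 (adjusted p = 8.82e-05). W464A/W465A/W796A also had these 7 promoters called lower, beside 22.3% of all promoters, and no overlap of libraries at the 7, as at 40.4% of all. There Hormad1 differed by -36.2 points ± 10.9 (SE), with an adjusted p of 0.000812, and Sycp1 by -25.7 points ± 11.8 (SE), with an adjusted p of 0.0220 in the quasi-binomial model. Sycp1 was the exception to the stability of these calls. It lost its call in both groups without WT replicate 2, and in W464A/W465A/W796A also without replicate 1 or 3 of that group, with no squeezing and with only the compared groups fitted.

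Substitution of W796 alone changed none of the 8 promoters by this test. The quasi-binomial model called 3 promoters lower (0.0189%) and 43 higher (0.27%) among all tested, and 2108 had an unadjusted p under 0.05. The adjusted p of the 8 genes lay between 0.136 (Stag3) and 0.965 (Sycp3). Differences of means ranged from -8.13 points ± 10.9 (SE) at Dpep3 to 13.0 points ± 13.0 (SE) at Sycp2. Libraries of WT and W796A with the same number deviated from their group means together, so the differences were also taken within numbers, which changes their errors and not their means. At 4 promoters W796A was then higher in 3 of 3 pairs. The share of all promoters with 3 of 3 pairs higher was not counted, and the labels give no source for the pairing. The paired differences were 12.4, 9.82 and 13.2 points at Sycp1, a mean of 11.8 ± 1.01 (SE), and 7.04, 16.4 and 15.8 points at Sycp2, a mean of 13.0 ± 3.01 (SE). They were 4.35, 11.2 and 6.39 points at Slc25a31, and 0.432, 2.78 and 2.17 at Stag3. The other 4 promoters had pairs in both directions. A quasi-binomial fit of these 6 libraries blocked on that number, added after the data were seen, still called none of the 8, and the adjusted p was 0.187 at Sycp1 and Sycp2, 0.196 at Stag3 and 0.247 at Slc25a31. At Stag3 the unpaired difference was 1.79 points ± 0.863 (SE), under the 10-point minimum.

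Cells with W465A/W796A lay between WT and W465A at the methylated promoters. Against WT, 2 of the 8 promoters were called lower, beside 4.4% of all promoters. Tex101 differed by -27.1 points ± 11.2 (SE), with an adjusted p of 0.0410 in the quasi-binomial model and overlapping libraries. Dpep3 differed by -24.8 points ± 3.97 (SE), with an adjusted p of 0.0437, and was the 1 of the 8 with no overlap, as were 19.9% of all promoters. The remaining 5 methylated promoters had differences from -17.7 points ± 9.42 (SE) at Slc25a31 to -3.56 points ± 15.6 (SE) at Sycp1, with adjusted p between 0.0751 and 0.634. Neither call was stable. No member was called by limma or edgeR, with only the compared groups fitted, or without any one of 12 libraries, which were WT replicates 2 and 3, W465A replicate 2 and all those of W465A/W796A, W464A/W465A and W464A/W465A/W796A. By contrast 4 were called without WT replicate 1, W796A replicate 1 or W796A replicate 2, and 1 was without W465A replicate 3.

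The median difference from WT over the 8 promoters was -39.8 points in W465A, -43.5 in W464A/W465A, -39.2 in W464A/W465A/W796A, -15.7 in W465A/W796A and 0.0213 in W796A. Over all 15914 promoters the corresponding medians were -0.593, -0.628, -0.652, -0.456 and 0.131 points, most promoters being near 0% in WT. Over the 3149 promoters with a pooled WT level of at least 20% they were -41.4, -49.6, -49.8, -20.8 and 1.03 points. These comparisons share the WT libraries. Of the 8 genes 7 are in that methylated set, and Stag3 is not. The median of the 8 includes Stag3, so it is not over the same kind of promoters as that of the set. As a share of the pooled WT level, the 7 kept a median of 36.1% in W465A, against 35.0% over the set. These medians were 71.9% and 66.4% in W465A/W796A, 21.1% and 24.3% in W464A/W465A, and 28.6% and 24.5% in W464A/W465A/W796A.

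**Figure D2:**
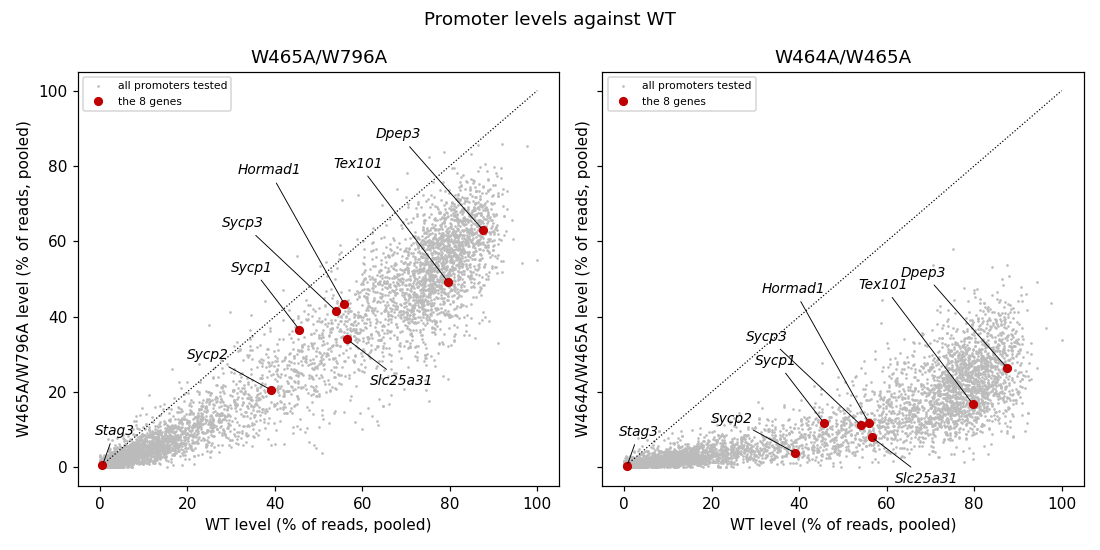
Pooled promoter level in W465A/W796A (left) and W464A/W465A (right) against the pooled WT level, in percent of reads, for the 15914 promoters tested (grey) and the 8 genes (red). The dotted line marks equal levels. The 7 methylated genes lie within the cloud of other methylated promoters, below the line in both panels, and Stag3 lies at the origin.

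Adding W796A to W465A came with higher promoter levels at the 7 methylated genes, but none passed the test. Against W465A, W465A/W796A libraries did not overlap and were higher at 7 of the 8 promoters, as at 20.4% of all promoters. The difference of means was 30.6 points ± 5.53 (SE) at Hormad1 (adjusted p = 0.0637 in the quasi-binomial model), 28.0 points ± 3.38 (SE) at Dpep3 (adjusted p = 0.0947) and 24.0 points ± 3.60 (SE) at Slc25a31 (adjusted p = 0.0973). The others had adjusted p between 0.137 (Sycp3) and 1 (Stag3). The model called 78 promoters higher (0.49%) over all genes. With the replicate number as a block Hormad1 was called higher, with only the compared groups fitted 5 of the 8 were, and edgeR called 2. Leaving out W796A replicate 1 or 2 gave 4 calls among the 8, and leaving out WT replicate 1 or 2 or W465A replicate 1 gave 1.

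Adding W464A to W465A gave no call at these genes. The mean level was lower by values from -11.8 points ± 4.32 (SE) at Tex101 to -2.53 points ± 2.46 (SE) at Slc25a31 among 6 of the methylated promoters, and Hormad1 differed by 0.0607 points ± 4.41 (SE). Libraries did not overlap and were lower at Sycp2, Sycp3, Tex101 and Dpep3, 4 of the 8, as at 9.09% of all promoters. The quasi-binomial model called 0 promoters over all genes (0%), while 815 had an unadjusted p below 0.05, and limma called 1 and edgeR 5. Adding W796A to W464A/W465A gave differences from 3.02 points ± 2.06 (SE) at Tex101 to 6.37 points ± 2.94 (SE) at Dpep3 over the 7 methylated genes. No promoter was called (0%), 491 had an unadjusted p below 0.05, and limma and edgeR called 0. Of the 8, the libraries of Sycp2 alone did not overlap, as at 4.2% of all promoters.

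Once W796A was present, adding W464A lowered 3 of the 8 promoters, beside 8.61% of all promoters. From W465A/W796A to W464A/W465A/W796A Dpep3 differed by -30.5 points ± 3.13 (SE), with an adjusted p of 0.0275 in the quasi-binomial model. Sycp3 differed by -26.3 points ± 4.16 (SE), with an adjusted p of 0.0293, and Hormad1 by -25.1 points ± 5.89 (SE), with an adjusted p of 0.0444. Tex101 and Slc25a31 differed by -29.7 points ± 4.61 (SE) and -20.5 points ± 3.90 (SE) and just missed the threshold, with adjusted p of 0.0552 and 0.0515. Libraries did not overlap and were lower at 6 of the 8 promoters, as at 27.6% of all. The count depended on the settings, being 7 with promoters of 1000 bp either side, 5 by edgeR, and 0 by limma, with no squeezing or without any single library of W465A/W796A or replicate 1 or 3 of W464A/W465A/W796A. It was 6 without W796A replicate 1 or 2 and 5 without WT replicate 1 or 2.

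From W796A to W465A/W796A, 3 promoters were called lower, beside 12.1% of all promoters. They were Sycp2 at -27.0 points ± 10.6 (SE), Slc25a31 at -24.96 points ± 11.3 (SE) and Tex101 at -26.9 points ± 11.2 (SE), with adjusted p of 0.0150, 0.0293 and 0.0309 in the quasi-binomial model. The libraries of Sycp2 did not overlap, as at 33.6% of all promoters, and those of the other 7 genes did. Over all genes 1 promoter was called higher (0.00628%). None of the 3 was called by limma, with only the compared groups fitted, or without W796A replicate 2 or W465A/W796A replicate 2, 1 was called without W796A replicate 3, and 6 members were called without W796A replicate 1.

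Whether W796A had a different effect in the W465A background than in WT was tested as a departure from additivity on the logit scale. Pooled levels gave a difference of differences of 37.6 points at Dpep3, 34.6 at Hormad1, 23.6 at Sycp3, 22.3 at Tex101, 20.9 at Slc25a31, 8.40 at Sycp1 and 5.06 at Sycp2. None of the 8 passed, with adjusted p between 0.171 (Hormad1) and 0.764 (Sycp1) in the quasi-binomial model. No promoter was called over all genes (0%), 1935 had an unadjusted p below 0.05, and limma called 0 and edgeR 12. Without W796A replicate 2, 4 of the 8 were called. For the W464A/W465A background the values ran from -6.82 points at Sycp1 to 14.5 at Dpep3, and no promoter was called (0%), 715 had an unadjusted p below 0.05, and limma and edgeR called 0.

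In the gene bodies all 8 genes, Stag3 included, were methylated in WT and lost methylation with W465A. Mean WT body levels ran from 53.0% ± 8.35 (SD, n = 3) at Sycp3 to 80.3% ± 7.99 (SD, n = 3) at Tex101. Stag3 had 70.4%, 76.7% and 76.3% in WT, and 38.8%, 25.5% and 26.4% in W465A. In W464A/W465A it had 23.2%, 28.5% and 18.2%, so its body behaved unlike its promoter. Sycp2 reached the lowest body levels, with 53.2%, 75.1% and 75.3% in WT and 8.15%, 14.4% and 6.12% in W464A/W465A. Tex101 kept the highest, with 71.7%, 81.7% and 87.5% in WT and 24.1%, 36.9% and 26.6% in W464A/W465A.

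Against WT, all 8 bodies were called lower in the W465A group, the W464A/W465A group and the W464A/W465A/W796A group by the quasi-binomial model over 19243 bodies. Over all genes 94.8%, 95.6% and 95.6% of bodies were called lower in these groups, so the 8 shared this with nearly every gene. A single body was called higher in W465A (0.0052%). In W465A the difference was -53.8 points ± 7.74 (SE) at Sycp2 (adjusted p = 2.41e-05), -44.2 points ± 4.74 (SE) at Stag3 (adjusted p = 2.92e-05) and -28.4 points ± 5.15 (SE) at Sycp3 (adjusted p = 0.000298). In W796A no body was called lower or higher (0%), 301 had an unadjusted p below 0.05, and limma and edgeR called 0. The differences of the 8 in W796A ran from -3.54 points ± 9.52 (SE) at Sycp3 to 7.78 points ± 10.3 (SE) at Sycp2.

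In W465A/W796A 7 bodies were called lower than WT, beside 68.5% of all bodies. Sycp3 was the exception, with 46.6%, 41.4% and 42.7% in W465A/W796A against 43.3%, 58.0% and 57.5% in WT, an adjusted p of 0.155 and overlapping libraries. The strongest difference was that of Sycp2, at -32.7 points ± 8.18 (SE) and an adjusted p of 0.0168. None of the 7 was called without WT replicate 2 or without replicate 2 or 3 of W465A/W796A.

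Against W465A, W465A/W796A bodies were higher at 6 of the 8 genes, beside 74.4% of all bodies. They rose by values from 16.2 points ± 3.90 (SE) at Slc25a31 to 24.2 points ± 5.26 (SE) at Stag3, with adjusted p between 0.0120 and 0.0452. Tex101 and Dpep3 had 14.8 points ± 4.51 (SE) and 21.8 points ± 5.78 (SE), with adjusted p of 0.0884 and 0.0535. Leaving out W465A replicate 3, or W465A/W796A replicate 1, left none called, and leaving out W465A replicate 2 left 4. The libraries of both groups did not overlap at 8 of the 8 bodies, as at 88.3% of all bodies.

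W464A/W465A/W796A bodies were lower than those of W465A/W796A at 8 of 8 genes, beside 88.4% of all bodies, with differences from -32.6 points ± 4.96 (SE) at Dpep3 to -24.6 points ± 4.21 (SE) at Sycp2 and adjusted p between 0.000536 and 0.00395 in the quasi-binomial model. From W796A to W465A/W796A 6 bodies were called lower, beside 57% of all bodies, Sycp3 and Dpep3 being the exceptions with adjusted p of 0.310 and 0.104. None was called with only the compared groups fitted, or without W796A replicate 2 or W465A/W796A replicate 3, 1 was without W796A replicate 3, and 3 were without W465A/W796A replicate 2. Neither W464A added to W465A nor W796A added to W464A/W465A gave a called body over all genes (0%), where 526 and 11 had an unadjusted p below 0.05 and limma and edgeR called 0 in each. Hormad1 had the largest difference of the 8 in both, -13.8 points ± 4.75 (SE) in the former and 5.51 points ± 1.51 (SE) in the latter.

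In the bodies, W465A and W796A together departed from additivity by between 15.9 points (Sycp2) and 26.0 points (Dpep3) by pooled level. None of the 8 was called, with adjusted p between 0.0566 (Sycp3) and 0.165 (Tex101), beside 27.3% of all bodies called higher by the quasi-binomial model. Leaving out W796A replicate 2 gave 7 calls among the 8, leaving out WT replicate 1 gave 6, and leaving out W465A replicate 1 gave 2. For W464A/W465A and W796A the values ran from -5.61 points at Sycp2 to 8.03 at Hormad1, no body was called (0%), 22 had an unadjusted p below 0.05, and limma and edgeR called 0.

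**Figure D3:**
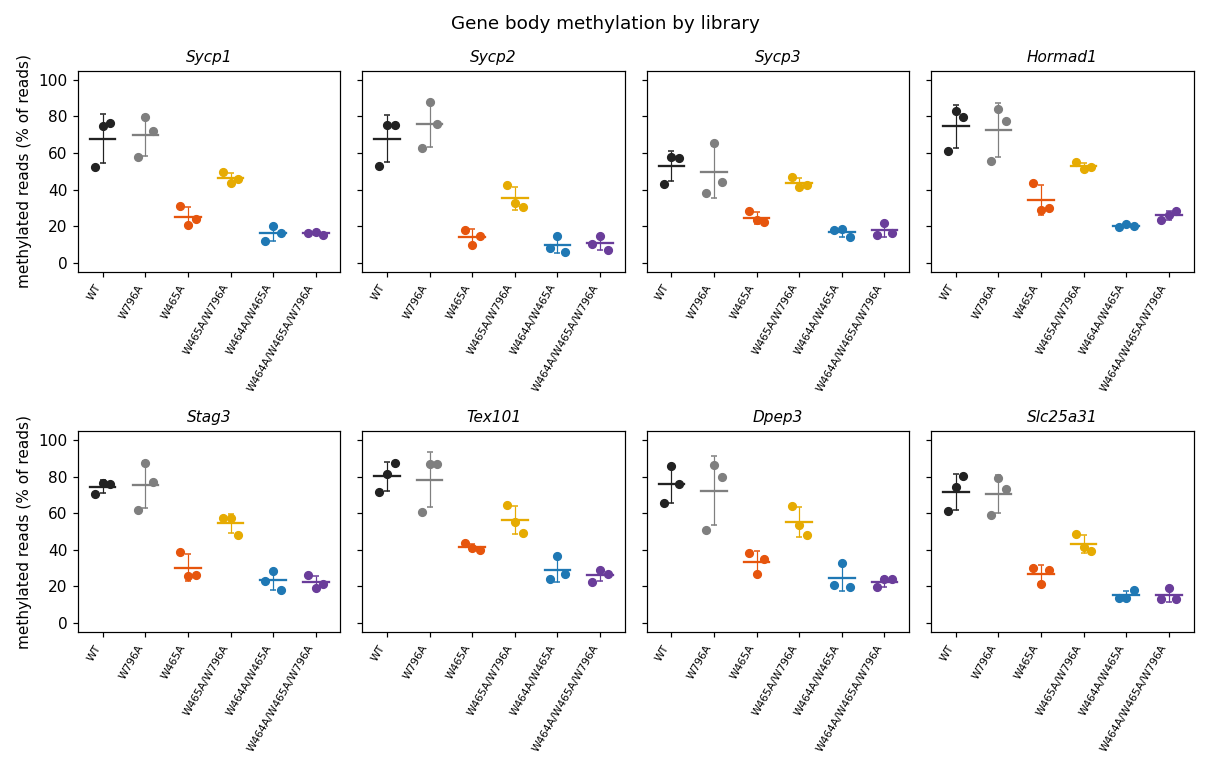
Gene body methylation level (vertical axis, percent of reads outside the promoter window) of the 8 genes in each library, with points for replicates 1 to 3, the mean as a bar and 1 SD as the error bar (n = 3). Stag3 behaves like the other genes here, and W465A/W796A lies above W465A at all 8 with no overlap.

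Promoter and body of the same gene were set side by side as the share of the pooled WT level that remained. In W464A/W465A Sycp2 kept 9.51% at the promoter and 14.4% in the body, Slc25a31 14.1% and 20.6%, Sycp3 20.6% and 31.3%, and Tex101 21.2% and 36.1%. Hormad1 kept 21.1% and 26.5%, Sycp1 25.8% and 23.2%, and Dpep3 30.0% and 31.6%. In that group the promoter kept a smaller share than the body at 6 of these 7 genes, Sycp1 being the exception. The count was 5 of 7 in W465A and 3 of 7 in both W465A/W796A and W464A/W465A/W796A, so the order of promoter and body was not the same in the 4 groups. Sycp3 and Tex101 had the smaller share at the promoter in all 4. Over all genes with a WT level of at least 20%, the median share kept was 24.3% at 3149 promoters and 29.9% at 18019 bodies.

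In W465A the shares at Hormad1 were 19.4% at the promoter and 44.8% in the body, and at Slc25a31 19.5% and 37.6%, the widest gaps of the 7 genes. Dpep3 kept 39.4% at the promoter and 43.5% in the body. The medians over all such promoters and bodies were 35.0% and 40.4%. In W465A/W796A the promoters kept between 52.4% (Sycp2) and 80.1% (Sycp1), and the bodies between 51.4% (Sycp2) and 80.6% (Sycp3). The corresponding medians over all genes were 66.4% and 72.0%. Sycp2 thus kept the smallest share of the 8 in the body in all 4 of the groups with W465A.

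**Figure D4:**
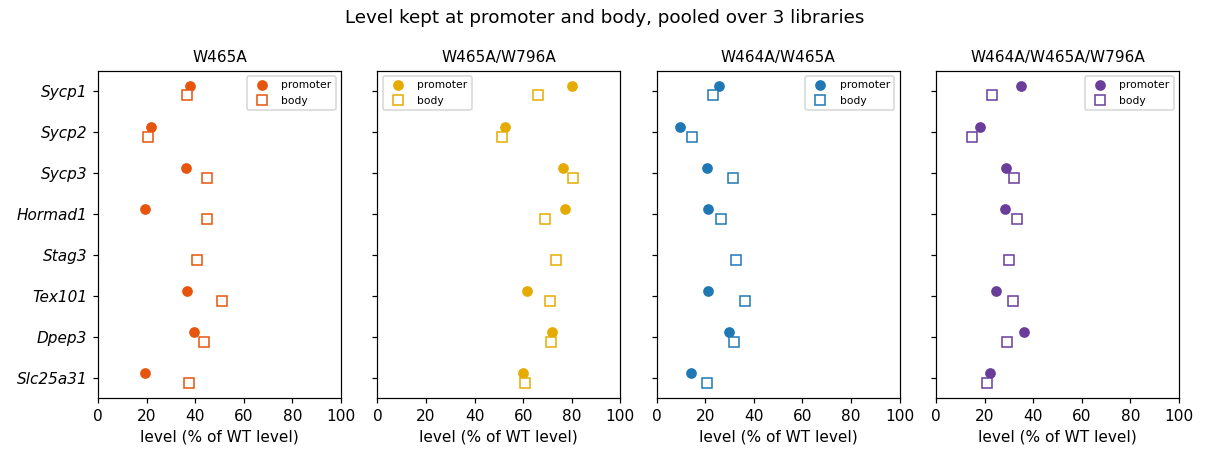
Share of the pooled WT level that remained (horizontal axis, percent) at the promoter (filled circles) and in the body (open squares) of each gene in the 4 groups with W465A. The Stag3 promoter is left out because its WT level was 0.590%. Shares are highest in W465A/W796A, and those of Sycp2 are among the lowest in each panel.

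Levels also varied along a promoter. In WT the Sycp1 promoter had 77.6% ± 15.2 (SD, n = 3) at the 8 CpGs in the 250 bp before the start, 42.0% ± 23.8 (SD, n = 3) at 24 CpGs in the first 250 bp after it and 28.3% ± 9.69 (SD, n = 3) at 18 CpGs beyond. Slc25a31 was lowest just upstream of the start, with 43.8% ± 17.4 (SD, n = 3) at 15 CpGs there, 59.1% ± 14.7 (SD, n = 3) at 16 CpGs in the first 250 bp after it, 68.7% ± 12.8 (SD, n = 3) at 13 CpGs further downstream and 84.3% ± 22.3 (SD, n = 3) at 2 CpGs further upstream. In W464A/W465A it had 6.91% ± 1.69, 8.50% ± 5.45 and 9.18% ± 2.75 in the first 3 of these stretches and 33.3% ± 14.4 at the 2 CpGs further upstream (SD, n = 3 each). At Dpep3 the 11 CpGs beyond 250 bp downstream had the highest level in W464A/W465A, 40.9% ± 7.64 (SD, n = 3). The 16 CpGs in the first 250 bp after the start had 23.2% ± 1.07 (SD, n = 3), close to the 22.0% ± 4.53 (SD, n = 3) at 8 upstream.

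Single CpGs showed the same split between the genes. In WT all 35 CpGs of Dpep3 and all 22 of Tex101 were at 50% or more with the libraries pooled, as were 36 of 46 at Slc25a31, 12 of 19 at Sycp3, 8 of 14 at Hormad1, 25 of 50 at Sycp1 and 11 of 41 at Sycp2. At Stag3 43 of 44 were under 10%, and the other lay downstream of the start at 35.3%. In W464A/W465A 36 of 41 CpGs at Sycp2 were under 10%, but 2 of 35 at Dpep3, where 6 were still at 50% or more. Of the Stag3 promoter CpGs 43 lay upstream of the start, so its window says little about the downstream side.

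**Figure D5:**
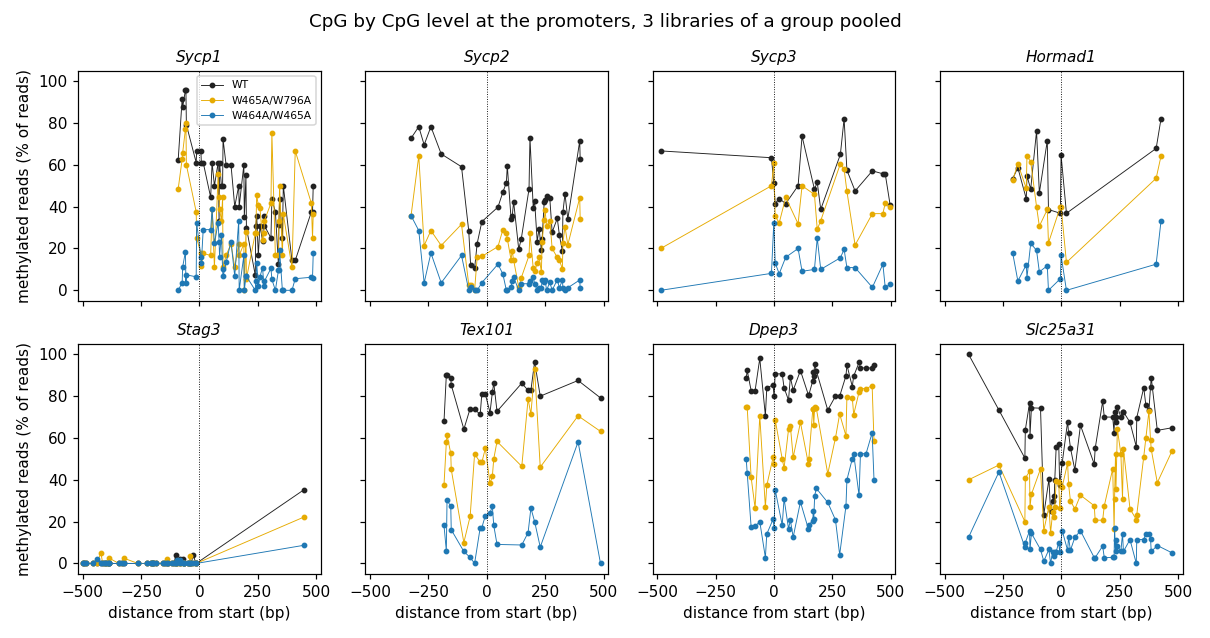
Level of each CpG (vertical axis, percent of reads, 3 libraries pooled) by distance from the transcript start in bp (horizontal axis, negative upstream) in WT, W465A/W796A and W464A/W465A. Dpep3 and Tex101 are high along the whole window in WT, Sycp1 declines and Slc25a31 increases from the start downstream, and Stag3 is near 0 up to the start.

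The windows of 500 bp either side of the start held between 32 (Tex101) and 66 (Stag3) CpGs, against a median of 43 over all protein-coding promoters. The ratio of observed to expected CpGs was 0.762 at Stag3, 0.753 at Slc25a31, 0.721 at Sycp1, 0.694 at Hormad1, 0.652 at Sycp3, 0.640 at Sycp2, 0.564 at Dpep3 and 0.435 at Tex101, against a median of 0.570. Over the 15914 promoters tested, to which all 8 belong, the medians were higher, at 58 CpGs and a ratio of 0.692. The 2 genes with the highest WT methylation thus had the lowest ratios, and the unmethylated Stag3 had the highest, but Slc25a31 and Sycp1 were methylated at ratios close to that of Stag3. Letter strings were searched on both strands in the 250 bases before the start, as a description of the sequence only. CACGTG, the E-box letters, was found at Sycp1, Sycp3, Hormad1, Stag3 and Slc25a31, 5 of 8, beside 6.60% of all protein-coding promoters. GCGGGA, the core letters of E2F sites, was found at Sycp3, Hormad1 and Stag3, 3 of 8, beside 21.3% of all and 28.2% of those tested. No match of one string overlapped a match of the other, and both strings contain a CpG.

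Other meiotic chromosome genes also had both methylated and unmethylated promoters, but a smaller part was methylated than of the 8. Of 41 listed genes 34 had a tested promoter, and 16 of those had at least 20% in WT, against 7 of the 8. In W465A 18 of the 34 were called lower, including 16 of these 16, beside 21% of all promoters. The median difference there was -13.1 points over the 34. W464A/W465A and W464A/W465A/W796A had 17 lower each, beside 22.2% and 22.3% of all promoters. W465A/W796A had 1, beside 4.4%, and W796A 0, beside 0.0189%. The highest in WT were Mei1, needed for meiotic double-strand breaks, at 82.9% ± 7.17 (SD, n = 3), Terb2, of the telomere attachment complex, at 73.9% ± 2.88 (SD, n = 3), and Rnf212, a crossover factor, at 64.3% ± 9.23 (SD, n = 3). In W464A/W465A they had 24.9% ± 13.4, 22.6% ± 5.32 and 7.86% ± 1.97 (SD, n = 3 each), and Rnf212 was the gene called lower in W465A/W796A. The lowest in WT were Hsf2bp at 0%, Mnd1 at 0.241% ± 0.172 (SD, n = 3) and Sgo2a at 0.184% ± 0.0260 (SD, n = 3), which like Stag3 were near 0%.

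Among 33 other testis and germ cell genes 24 promoters were tested and 20 had at least 20% in WT. In W465A 18 were called lower, in W464A/W465A 21, in W464A/W465A/W796A 20, in W465A/W796A 1 and in W796A 0, and the median difference in W465A was -42.0 points. Over all promoters 21%, 22.2%, 22.3%, 4.4% and 0.0189% were called lower in these groups, in the same order. The highest in WT were Odf1, of the sperm tail, at 81.3% ± 4.75 (SD, n = 3), Sohlh1, a germ cell transcription factor, at 81.2% ± 4.54 (SD, n = 3), and Taf7l, a TFIID subunit of germ cells, at 78.5% ± 14.0 (SD, n = 3). Odf1 was the gene called lower in W465A/W796A. Tuba3a, an alpha tubulin of the testis, was called higher in W465A/W796A than in W465A, at 66.2% ± 3.71 against 28.3% ± 5.35 (SD, n = 3 each). The lowest were Ttk at 0%, Zpbp2 at 1.79% ± 1.02 (SD, n = 3) and Zpbp at 3.30% ± 1.28 (SD, n = 3).

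Relatives of the 8 genes that act outside the germ line mostly had unmethylated promoters. Of 11 such genes, all tested, 2 had at least 20% in WT, the dipeptidase genes Dpep1 at 76.4% ± 12.7 (SD, n = 3) and Dpep2 at 64.9% ± 14.4 (SD, n = 3). Both were called lower in W465A, at 36.1% ± 11.7 and 17.5% ± 10.9 (SD, n = 3 each), beside 21% of all promoters. The next highest was Mad2l1 at 9.38% ± 4.09 (SD, n = 3). Slc25a5, which encodes the ADP/ATP carrier of somatic cells, and the cohesin gene Smc1a were at 0% in WT, and Stag2, the somatic relative of Stag3, was at 0.124% ± 0.164 (SD, n = 3). Stag3 was thus near 0% like Stag2, and Dpep3 was methylated like Dpep1, whereas Slc25a31 was methylated and Slc25a5 was not.

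The promoters most like the 8 genes were found by the root mean square difference from their median level over the 18 libraries. They were Brdt, a testis bromodomain gene, at 4.53 points, Sds, which encodes serine dehydratase, at 4.54, and Mbp, the myelin basic protein gene, at 4.61. On average over 3 libraries Brdt was at 49.0% in WT and 37.2% in W465A/W796A, against 12.1% in W465A and 10.8% in W464A/W465A. Sds and Mbp, which are not germline genes, had 47.9% and 50.7% in WT and 12.2% and 9.85% in W464A/W465A.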

How the data were processed

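The authors deposited 1 table of raw counts, giving for each library the reads at a CpG and those among them that were methylated. Per the submitters' processing notes, cutadapt 1.2.1, Bismark 0.18.1 and Bowtie 1.2 were used with the build mm10/GRCm38. Per the labels' protocols, the enzymes were MspI, BfaI and MseI. Duplicate removal is not given in the sources used here, and reads are not independent molecules.

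All 36 count columns were used. Of 21867550 CpGs listed, 6143659 (28.1%) had a read in all 18 libraries. Positions matched every CpG of GRCm38. Features came from GENCODE M21 and sequence from RefSeq's GRCm38 assembly. Promoters are 500 bp either side of the principal transcript start, and bodies the rest of the gene record. A gene needed 3 CpGs and 10 reads in every library. A quasi-binomial logistic model took the sums per gene in the 18 libraries, leaving 12 residual degrees of freedom. Squeezing the overdispersion over genes (prior 1.86 at promoters and 13.5 in bodies) was followed by an F test with Benjamini-Hochberg adjustment, over 10 contrasts between groups and 2 departures from additivity. Software was numpy 2.4.6 and scipy 1.17.1 under Python 3.11.15. Alternatives, in R 4.3.3, were edgeR 4.0.16 and limma 3.58.1, the latter after adding 0.5 to the deposited counts. The fit was tested on simulated data with changes between WT and W465A. Of 100 promoters changed by 20 points 22 were called, and of 100 changed by 40 points 68 were. In bodies 13 and 78 of 100 were called. Among unchanged genes 6.28% of promoters and 6.15% of bodies had an unadjusted p under 0.05. Changes of about 20 points were thus mostly missed in the simulation. There all other genes were left unchanged, whereas in the real data 21% of promoters and 94.8% of bodies were called lower in W465A. As the adjustment depends on how many genes change, the recovered counts do not carry over to the real comparisons.

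The members and gene lists were chosen with earlier results of these data known. Named list genes are the 3 highest and 3 lowest in WT and any called higher. Same-numbered WT and W796A libraries deviated together (r over promoters 0.142 to 0.637, over bodies 0.168 to 0.313). Of 15 pairs of groups only this one had every such r over 0.1. W465A and W465A/W796A came close, with 0.0960 to 0.323 over promoters and 0.0455 to 0.211 over bodies. Over promoters, WT and W796A libraries of unlike number reached an r of 0.310, above the lowest of the same number. The labels give no source for this pairing.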

Additional observations from a re-analysis of the deposited data

How the results depend on the processing

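No called difference of the 8 genes changed sign under any of 30 settings, over the 80 called of 192 pairs of gene and comparison, while 50 of the 112 uncalled pairs changed sign under at least 1 setting. A sign could change only with other CpGs or windows, or without a library of the compared groups. The remaining settings kept the same pooled difference, so an unchanged sign there says nothing about stability. Of 96 levels (8 genes, promoter and body, 6 groups), 20 moved by more than 1 SD with 5 reads per CpG and 6 with each CpG counted once. The Sycp2 promoter in W464A/W465A went from 3.67% to 2.73% and 5.58%, that of Stag3 in W465A/W796A from 0.469% to 1.33% with each CpG counted once, and the Sycp3 body in WT from 53.0% to 39.8% with 5 reads. For W465A/W796A against WT at promoters (2 of 8 called) the count was 1 with a minimum of 25 points, with at least 1 CpG and 1 read and with the start of the gene record. It was 0 with 5 reads per CpG, no squeezing, only the compared groups, limma and edgeR. For W464A/W465A/W796A against W465A/W796A at promoters (3) it was 0 with 5 reads, no squeezing and limma, 5 with the gene record's start and by edgeR, 6 with only the compared groups and 7 with 1000 bp. For W465A/W796A against W465A at promoters (0) it was 1 with 1000 bp and with the replicate block, 2 by edgeR and 5 with only the compared groups. For W465A/W796A against W796A at promoters (3) it was 1 with no squeezing and 0 with only the compared groups and by limma. In bodies, with 25 points and with 5 reads, the counts were 2 and 3 for W465A/W796A against WT (7), 0 and 3 against W465A (6) and 2 and 3 against W796A (6), the last also 0 with only the compared groups. W464A/W465A/W796A against W465A/W796A (8) gave 5 with 5 reads. With 5 reads 161 pairs of gene and comparison stayed as they were, 18 lost their call and 1 gained one. The rest of the 192 could not be tested, so the counts with 5 reads are not all out of 8. Why the counts moved was not tested.

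Leaving out each library in turn, promoter counts ranged from 6 to 7 in W465A, W464A/W465A and W464A/W465A/W796A against WT. They ranged from 0 to 4 for W465A/W796A against WT and against W465A, 0 to 6 for W464A/W465A/W796A against W465A/W796A, 0 to 6 for W465A/W796A against W796A and 0 to 4 for the departure of W465A with W796A. Body counts were 8 throughout for W465A, W464A/W465A and W464A/W465A/W796A against WT, and 0 to 7 for W465A/W796A against WT, 0 to 8 against W465A and 0 to 7 against W796A, and 0 to 7 for the departure. Of 16 pairs of gene and region none changed its call between WT and W796A with the replicate block in these 6 libraries alone, a fit chosen after the data were seen. With the block in all 18 libraries, Slc25a31 was called lower in W464A/W465A/W796A against W465A/W796A at the promoter. The Dpep3 body in W465A/W796A lost its call against WT and gained one against W465A. The pooled differences, which the block does not change, were -21.2, -21.8 and 21.6 points in this order.

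Counts over all promoters moved more. W796A against WT called 46, against 159 with the block, 0 with the block in the 6 libraries, 0 by limma and 3 by edgeR. W465A/W796A against WT called 701, against 2065 with 1000 bp, 62 with no squeezing, 13 by limma, 64 by edgeR and 0 with only the compared groups. With 5 reads, W465A against WT called 1453 promoters in place of 3346. The 5-read setting kept 1424423 CpGs in place of 6143659, and the 1000 bp setting used wider windows. Their counts are thus not out of the same promoters as the main counts.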

Other observations

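The flanks of 2 kb, taken beyond the ends of the gene record and outside the promoter window, were described without a test. At Tex101 the upstream flank therefore begins 4625 bp before the transcript start, and the sequence from there to the promoter window was counted as body. Upstream of the promoter window, Hormad1 had 79.9% ± 10.2 (SD, n = 3) in WT and 28.5% ± 13.9 (SD, n = 3) in W464A/W465A at 4 CpGs, Slc25a31 82.9% ± 11.3 (SD, n = 3) and 20.7% ± 9.11 (SD, n = 3) at 6, and Tex101 80.6% ± 2.76 (SD, n = 3) and 22.0% ± 2.78 (SD, n = 3) at 11. Stag3 differed from these, with 5.47% ± 3.09 (SD, n = 3) in WT at 20 upstream CpGs, on the side where Gpc2 starts. Downstream, 10 CpGs past the end of Hormad1 had 4.79% ± 1.08 (SD, n = 3) in WT and 8.10% ± 2.69 (SD, n = 3) in W796A. The start of Golph3l, the nearest other protein-coding gene, lies 29257 bp from that of Hormad1, within this flank. The low CpGs beside Hormad1 and the methylated Hormad1 promoter, at 53.4% ± 17.1 (SD, n = 3), thus lie at the starts of 2 neighbouring genes.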
